A study of Mus musculus with 4 samples.

Results

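The genes described here are 7 of the 23980 in the deposited expression table: Malat1 and Neat1, which are long noncoding RNAs of nuclear bodies, Nono, Sfpq and Pspc1, which encode paraspeckle proteins, and Son and Srrm2, which encode nuclear speckle proteins. They were looked up by symbol, and all 7 were found. The set was selected on measured values, because the Malat1 level stood out in the Dnmt3L KO library, so the Malat1 values of that library are given as a description with no test.

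PolyA(+) RNA was sequenced with strand information from leptotene/zygotene (L/Z) spermatocytes, the cells of early meiotic prophase, which had been sorted by FACS from mice of 3 to 4 weeks. All animals were F1 hybrids of C57BL/6J and MSM/Ms, from knockout lines held on C57BL/6J and crossed with MSM/Ms. Sequenced were 4 libraries, of a Dnmt3L heterozygote (control replicate 1, also called the heterozygous control), a Pld6 WT (control replicate 2), a Dnmt3L KO and a Pld6 KO, so each mutant had 1 library and no replicate. The comparison asks how RNA levels differ in spermatocytes that lack Dnmt3l, a cofactor of de novo DNA methylation, or Pld6, a nuclease needed to make piRNAs. The 2 controls differ in genotype and line, and nothing in the labels says how many animals gave each library. The spread between them holds these differences as well as chance.

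Between 30439943 (Pld6 KO) and 63875934 (Dnmt3L heterozygote) fragments were assigned to genes in the table. The study's methods state fewer reads for L/Z libraries than these totals, and why was not given in the sources used here, so counting intervals that rest on the fragments may be too narrow. Each targeted gene was lowest in its own knockout. Pld6 was at 17.2, 19.5, 8.55 and 0.334 FPKM in the heterozygous control, Pld6 WT, Dnmt3L KO and Pld6 KO libraries. Dnmt3l was at 1.27, 0.980, 0 and 0.432 FPKM in the same order, on 101, 46, 0 and 20 fragments. Its level in the heterozygote was not below that in Pld6 WT. FPKM is the number of fragments scaled to the length of the gene and the depth of the library, so that levels of different genes can be compared. All 18 L/Z spermatocyte markers were detected in every library, and their summed level ranged from 1382 FPKM in Dnmt3L KO to 3921 FPKM in Pld6 WT. The libraries also held other cells: the summed level of 17 Sertoli cell markers was 10275 FPKM in the heterozygous control and 13293 FPKM in Dnmt3L KO, against 302 FPKM in Pld6 WT and 742 FPKM in Pld6 KO. The Dnmt3L heterozygote further held 7339 FPKM of 16 spermatid markers, against 222 FPKM in Pld6 WT, 31.3 FPKM in Dnmt3L KO and 14.5 FPKM in Pld6 KO. In such bulk samples fewer cells of a type and less RNA per cell cannot be told apart.

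Nuclear speckles are bodies rich in splicing factors, built around the large proteins Son and Srrm2, and Malat1 is the abundant long noncoding RNA found in them. Paraspeckles lie beside the speckles and form on Neat1, which is bound by the related RNA-binding proteins Nono, Sfpq and Pspc1. Malat1 and the long form of Neat1 do not end in an ordinary polyA tail: the enzyme RNase P cuts their precursors in front of a tRNA-like structure, and the new end is held in a triple helix of U-rich and A-rich stretches. The short form of Neat1 is polyadenylated. Libraries of polyA(+) RNA hold what oligo(dT) captures, which for such RNAs depends on internal A-rich sequence.

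Malat1 and Neat1 are neighbours on the reverse strand of chromosome 19. In the mm10 coordinates Malat1 lies at chr19:5795690-5802672 and Neat1 at chr19:5824708-5845480, with 22035 bases between them. The ends of both RNAs are shown because they bear on what a polyA(+) library captures. The following lines give the last 120 bases of the Malat1 RNA before the cut (chr19:5795982-5796101, reverse strand), with its A run in capitals, and then mascRNA, the small RNA released behind the cut (chr19:5795924-5795981, reverse strand). They were read from the GENCODE M21 transcript of Malat1, and the place of mascRNA from RefSeq.
Malat1 RNA before the cut: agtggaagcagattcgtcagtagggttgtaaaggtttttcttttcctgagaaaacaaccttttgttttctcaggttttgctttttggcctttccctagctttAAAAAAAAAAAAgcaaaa
mascRNA: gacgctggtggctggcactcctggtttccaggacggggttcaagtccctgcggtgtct
The run of 12 A spans bases 6674 to 6685 of the 6983-base annotated transcript and stops 6 bases before mascRNA. It was the only run of at least 10 A in the transcript. Such a run was present in 15.1% of the longest transcripts of 21287 genes, and in 34.1% of the 2948 transcripts of 5 to 9 kb.

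The last 60 bases of the annotated Neat1 RNAs are given next, from the same transcripts. Capitals mark the polyadenylation signal AATAAA in the short form and the closing AAAA in the long form.
short Neat1 RNA end: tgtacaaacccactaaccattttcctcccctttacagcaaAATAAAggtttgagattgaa
long Neat1 RNA end: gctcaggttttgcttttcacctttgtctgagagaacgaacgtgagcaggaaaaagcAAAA
The longest A run was 5 bases in the short form (3004 bases) and 7 bases in the long form (20771 bases). The deposited fragments and FPKM of Neat1 imply a counted length of 2.82 to 3.10 kb, close to the short form, so fragments from the rest of the long form may not be in its values. For Malat1 the implied length was 6.44 to 7.06 kb.

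The Malat1 promoter is shown because Dnmt3l acts on DNA methylation, which falls on CG. The 300 bases (250 before the start to 50 after it, RefSeq, GRCm38.p6, chr19:5802623-5802922, reverse strand) read as follows, with each CG in capitals.
Malat1 promoter: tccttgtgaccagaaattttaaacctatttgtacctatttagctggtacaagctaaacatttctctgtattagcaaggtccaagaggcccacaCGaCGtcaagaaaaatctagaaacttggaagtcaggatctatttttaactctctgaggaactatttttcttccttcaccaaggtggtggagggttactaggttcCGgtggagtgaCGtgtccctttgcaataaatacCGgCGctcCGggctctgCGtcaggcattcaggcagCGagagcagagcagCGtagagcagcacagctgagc
It holds 10 CG, and 58.1% of 27025 promoters of the same length hold as few or fewer. CG reads the same on both strands. At least 1 CG was present in 94.2% of all promoters, with a median of 7. Promoters were matched for 6 of the 7 genes. Sfpq had 13 CG, Nono and Pspc1 each had 23, Son had 31, and the 2 listed starts of Srrm2 had 30 and 33, so Malat1 had the fewest of the 6. Methylation was not analysed here.

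The Malat1 level was 23.6 FPKM in the heterozygous control, 32.3 FPKM in Pld6 WT, 156 FPKM in Dnmt3L KO and 37.9 FPKM in Pld6 KO. These values rest on 10408, 8926, 50216 and 8149 fragments. The Dnmt3L KO library stood above the other 3, which lay within 1.60-fold of each other. The Dnmt3L KO level was 6.61 times that of the heterozygote of its own line and 4.83 times that of Pld6 WT. Against Pld6 KO it was 4.12 times as high. Of 14416 genes with a mean of at least 1 FPKM, Malat1 ranked 4909 by level in the Dnmt3L heterozygote, 3587 in Pld6 WT, 2912 in Pld6 KO and 603 in Dnmt3L KO. On the scale log2((FPKM + 1)/(mean control FPKM + 1)), which understates the differences of low genes, Malat1 differed by 2.44 in Dnmt3L KO, and 50 of the 14416 genes had a larger value.

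In Pld6 KO, Malat1 lay 1.60-fold above the Dnmt3L heterozygote and 1.17-fold above Pld6 WT. The controls themselves differed 1.37-fold. The edgeR quasi-likelihood test, whose only residual degree of freedom came from the 2 controls, gave an adjusted p of 1 for Malat1 in Pld6 KO (unadjusted p = 0.519, log2 fold change 0.38).

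Neat1, the scaffold of paraspeckles, was at 4.72 FPKM in the heterozygous control, 5.50 FPKM in Pld6 WT, 9.69 FPKM in Dnmt3L KO and 8.96 FPKM in Pld6 KO. It was the lowest of the 7 genes in every library, with 667 to 1367 fragments. Both mutants lay above both controls, and the controls lay within 1.17-fold of each other. The Dnmt3L KO level was 2.05 times the heterozygote (95% counting interval 1.89 to 2.23) and 1.76 times Pld6 WT. Such intervals come from the fragments of each pair of libraries, with 1 library per side, so they cover counting error at most. Reads carried no molecular identifiers, so copies of 1 molecule may have been counted more than once. The Pld6 KO level was 1.63 times the WT of its own line (1.47 to 1.80) and 1.90 times the heterozygote. The mutants did not differ from each other beyond counting error (ratio 1.08, interval 0.992 to 1.18). Against the spread of the controls over all genes neither difference passed, since the adjusted p of edgeR was 0.876 for Dnmt3L KO (unadjusted p = 0.237) and 1 for Pld6 KO (unadjusted p = 0.317).

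**Figure D1:**
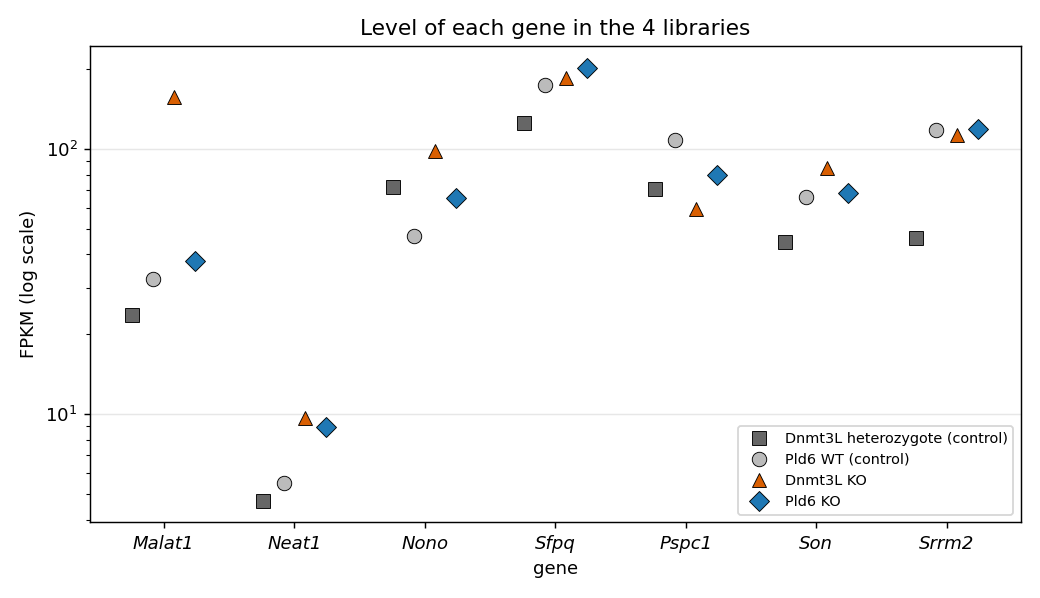
FPKM (log axis) of each of the 7 genes in each of the 4 libraries, with 1 point per library. Malat1 in Dnmt3L KO, at 156 FPKM, stands apart from its other points at 23.6 to 37.9 FPKM, while the points of each other gene lie within 2.56-fold of each other.

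Among the paraspeckle proteins, Nono (chrX:101429560-101448593) was at 72.0 FPKM in the heterozygous control, 46.9 FPKM in Pld6 WT, 98.5 FPKM in Dnmt3L KO and 65.2 FPKM in Pld6 KO. The authors' tool marked the values of Nono in both mutants as failed, and they are given as listed. Dnmt3L KO was above both controls, and Pld6 KO lay between them. The controls differed 1.53-fold, while Dnmt3L KO was 1.37-fold above the heterozygote.

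Sfpq (chr4:127020716-127051101), the partner of Nono in RNA binding, was at 125 FPKM in the heterozygous control, 174 FPKM in Pld6 WT, 184 FPKM in Dnmt3L KO and 202 FPKM in Pld6 KO. It was the most abundant of the 7 genes in every library. Both mutants were above both controls, but only 1.06-fold (Dnmt3L KO) and 1.16-fold (Pld6 KO) above Pld6 WT, less than the 1.40-fold between the controls.

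Pspc1 (chr14:56722441-56778318), the third protein of this family, was at 70.3 FPKM in the heterozygous control, 108 FPKM in Pld6 WT, 59.6 FPKM in Dnmt3L KO and 79.7 FPKM in Pld6 KO. It was the one gene of the 7 that was lower in Dnmt3L KO than in both controls, at 84.7% of the heterozygote and 55.1% of Pld6 WT. The controls differed 1.54-fold, and Pld6 KO lay between them. The ratio of Sfpq to Pspc1 was 1.77 and 1.62 in the controls (Dnmt3L heterozygote and Pld6 WT), 3.10 in Dnmt3L KO and 2.54 in Pld6 KO, so both mutants were above both controls. The ratio of Nono to Pspc1 was 1.02 and 0.435 in the same controls, 1.65 in Dnmt3L KO and 0.819 in Pld6 KO.

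Of the speckle proteins, Son (chr16:91647824-91679192) was at 44.5 FPKM in the heterozygous control, 66.0 FPKM in Pld6 WT, 84.4 FPKM in Dnmt3L KO and 67.9 FPKM in Pld6 KO. Dnmt3L KO was 1.90-fold above the heterozygote and 1.28-fold above Pld6 WT, where the controls differed 1.48-fold. Pld6 KO and Pld6 WT lay within 1.03-fold of each other.

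Srrm2 (chr17:23790527-23824741) was at 46.3 FPKM in the heterozygous control, 118 FPKM in Pld6 WT, 112 FPKM in Dnmt3L KO and 119 FPKM in Pld6 KO. Here the heterozygote was the library that stood apart, 2.54-fold below Pld6 WT, and the other 3 lay close together. Srrm2 was the one gene of the 7 whose controls lay over 2-fold apart on the FPKM + 1 scale. Of the genes with a mean of at least 1 FPKM, 3419 of 14416 did so.

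By the rule that FPKM + 1 lies more than 2-fold beyond both controls, 1 of the 7 genes was higher in Dnmt3L KO, Malat1, and 0 were lower. The background of that rule was 2.14% of all 23980 genes higher and 5.78% lower in Dnmt3L KO, or 3.29% and 9.16% of the 14416 genes with a mean of at least 1 FPKM. Since Malat1 chose the set, nothing is read from its count. Against the heterozygous control alone the count in Dnmt3L KO was 2, Malat1 and Srrm2 (log2 difference 1.26), where 3.00% of all genes were higher. Against Pld6 WT alone it was also 2, Malat1 and Nono (1.05), where 12.1% of all genes were higher. In Pld6 KO 0 of the 7 genes were higher or lower, beside 1.04% higher and 5.41% lower of all genes and 1.51% and 8.57% of those with at least 1 FPKM. Against the heterozygous control alone it was 1, Srrm2 (1.34), beside 5.55% of all genes, and against Pld6 WT alone 0, beside 4.69%. Around the threshold in Dnmt3L KO, Malat1 lay 4.72-fold beyond the higher control on the FPKM + 1 scale and the next gene, Neat1, 1.64-fold.

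The edgeR test called 0 of 18657 genes in either mutant at an adjusted p under 0.05 (0.0% of the genes tested). At an unadjusted p under 0.05 it counted 203 higher and 1440 lower genes in Dnmt3L KO and 102 higher and 1383 lower genes in Pld6 KO, and DESeq2 called 17 higher and 925 lower genes in Dnmt3L KO and 15 higher and 949 lower genes in Pld6 KO. For Neat1, Nono, Sfpq, Pspc1, Son and Srrm2 in Dnmt3L KO, and for all 7 genes in Pld6 KO, the edgeR adjusted p ranged from 0.876 to 1. The common biological coefficient of variation, which edgeR took from the controls over all tested genes, was 0.589. It is not the spread of single genes, since the controls differed 1.17-fold for Neat1 and 2.54-fold for Srrm2. By this test, differences of the size seen in these genes could not be told from the spread between controls over all genes.

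**Figure D2:**
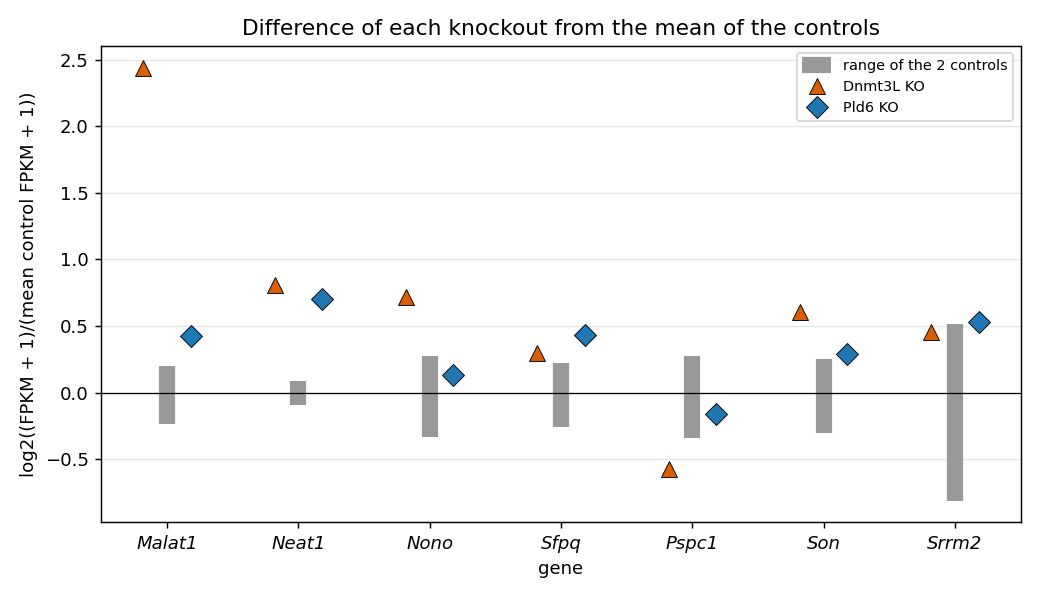
Difference of each knockout library from the mean of the controls, as log2 of FPKM + 1, for the 7 genes; grey bars span the 2 controls, and a triangle (Dnmt3L KO) or diamond (Pld6 KO) is 1 library. Malat1 in Dnmt3L KO lies at 2.44, and every other point lies between -0.57 and 0.81.

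The level of Malat1 was also set against the other genes within each library, which removes any scaling of the library as a whole. The ratio of Malat1 to Neat1 was 5.01 in the Dnmt3L heterozygote, 5.87 in Pld6 WT, 16.1 in Dnmt3L KO and 4.23 in Pld6 KO. The ratio of Malat1 to Sfpq was 0.189, 0.185, 0.847 and 0.187 in the same order, so that 3 libraries had nearly one value and Dnmt3L KO was apart. The ratio to each of the 6 other genes was highest in Dnmt3L KO, by 2.30-fold (Nono) to 7.80-fold (Pspc1) over the higher control. In Pld6 KO the ratio was above both controls for Pspc1 and Son, below both for Neat1 and between them for Nono, Sfpq and Srrm2. These ratios hold the same Malat1 value that chose the set and carry no test.

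**Figure D3:**
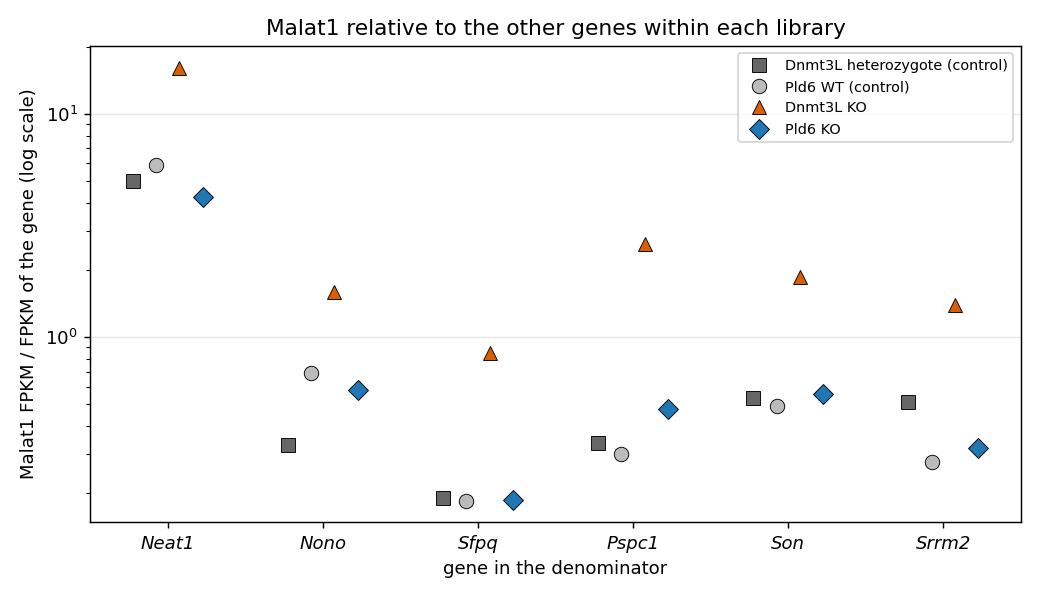
Ratio of the Malat1 FPKM to that of each other gene (log axis) within each library, with 1 point per library. The Dnmt3L KO point is the highest for every gene, for example 16.1 against 4.23 to 5.87 for Neat1.

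The wider families of the 2 bodies were described by lists written from general knowledge. The background for the count of each list is the share of genes with at least 1 FPKM past the rule. That share was 3.29% higher and 9.16% lower in Dnmt3L KO, and 1.51% and 8.57% in Pld6 KO. Of 33 paraspeckle proteins, 0 were past the 2-fold rule in either mutant. Their median log2 difference was -0.04 in Dnmt3L KO, with a range from -1.01 (Rbm4b) to 1.01 (Rbmx), and 0.01 in Pld6 KO. Over the genes with at least 1 FPKM the medians were -0.02 and -0.05. Without Nono, Sfpq and Pspc1 the list's medians were -0.07 and -0.06 (30 genes). The controls differed by more than this, since 28 of the 33 proteins were lower in the heterozygote than in Pld6 WT, with a median difference of -0.34. Of the genes with at least 1 FPKM, 6705 of 14416 were lower in the heterozygote, with a median difference of 0.06.

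Of 42 speckle proteins, 0 were past the rule in Dnmt3L KO, and in Pld6 KO 1 was lower and 0 higher. That gene was Prpf4b, a kinase of splicing factors, at 18.6 FPKM in the heterozygous control, 22.7 FPKM in Pld6 WT, 29.6 FPKM in Dnmt3L KO and 7.25 FPKM in Pld6 KO. The medians of the list were 0.08 in Dnmt3L KO and 0.24 in Pld6 KO, and 0.05 and 0.20 without Son and Srrm2. In Dnmt3L KO 14 of the 42 were above both controls and 9 below both, beside 35.5% and 34.0% of the genes with at least 1 FPKM. In Pld6 KO 21 were above both and 7 below both, beside 31.0% and 32.4%. Again the controls differed, with 36 of 42 genes lower in the heterozygote and a median of -0.36. The same background applies, 6705 of 14416 genes lower and a median of 0.06.

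Among 28 long noncoding RNAs found in the table, Malat1 and Firre were past the rule in Dnmt3L KO, both higher, and 0 were past it in Pld6 KO. Malat1 chose the set. Without Malat1 and Neat1, 1 of 26 was higher in Dnmt3L KO, beside 2.14% of all genes and 3.29% of those with at least 1 FPKM. Nothing is read from that count. Firre, an X-linked RNA that organises chromatin in the nucleus, was at 10.6 FPKM in the heterozygous control, 1.72 FPKM in Pld6 WT, 26.8 FPKM in Dnmt3L KO and 2.40 FPKM in Pld6 KO. Both libraries of the Dnmt3L line were above both libraries of the Pld6 line for Firre, unlike for Malat1. The median of the list was 0.31 in Dnmt3L KO and 0.30 in Pld6 KO, and 0.23 and 0.26 without Malat1 and Neat1.

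The 15 genes that process RNA ends of the Malat1 kind encode RNase P subunits, the tRNA 3′ end nuclease Elac2, the CCA-adding enzyme Trnt1 and the RNA methyltransferase Mettl16, which binds the triple helix. In Dnmt3L KO 1 was higher and 2 were lower by the rule, with a median of -0.37, and in Pld6 KO 0 were past it, with a median of -0.11. Of the genes with at least 1 FPKM, 3.29% were higher and 9.16% lower in Dnmt3L KO, and 1.51% and 8.57% in Pld6 KO. Nothing is read from these counts. Rpph1, the RNA component of RNase P, was at 16.2 FPKM in the heterozygous control, 18.5 FPKM in Pld6 WT, 1.86 FPKM in Dnmt3L KO and 10.1 FPKM in Pld6 KO. It is a short RNA polymerase III transcript without a polyA tail, and its values rest on 131, 94, 11 and 40 fragments. The protein subunit Rpp38 was at 20.5, 19.9, 9.41 and 17.4 FPKM in the same order, lowest in Dnmt3L KO. The subunit Rpp25 was at 1.71, 1.59, 5.75 and 3.06 FPKM, highest in Dnmt3L KO.

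**Figure D4:**
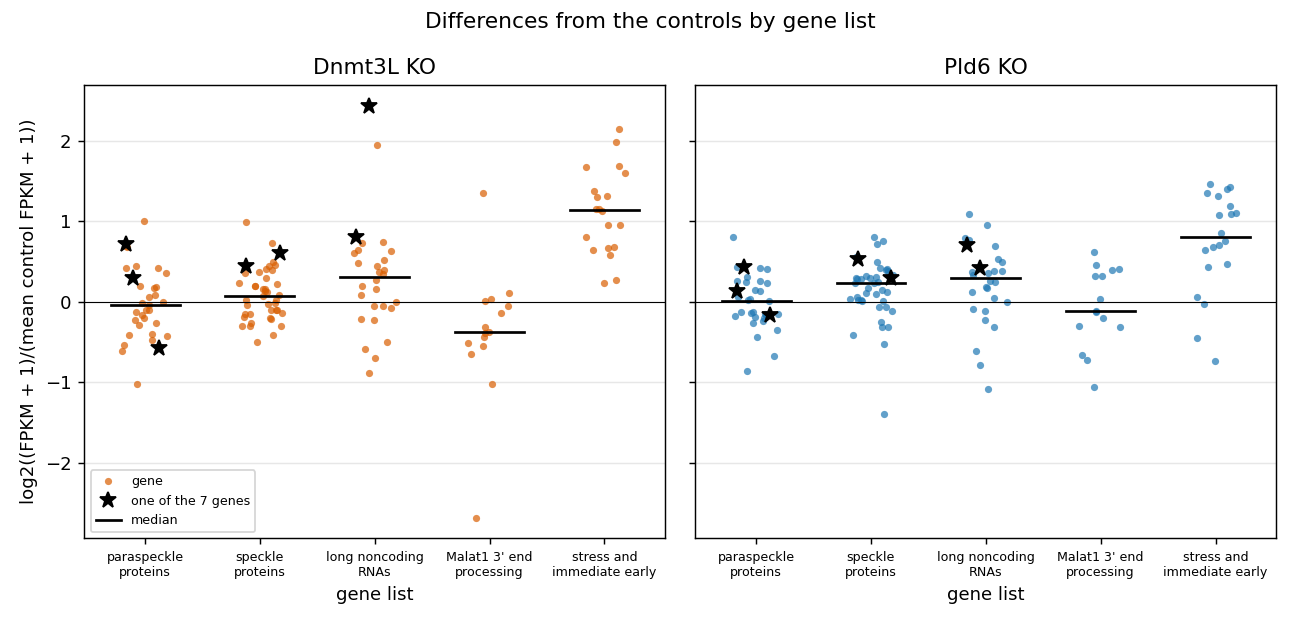
Difference from the mean of the controls (log2 of FPKM + 1) for each gene of 5 lists, in Dnmt3L KO and Pld6 KO; points are genes, stars are those of the 7 genes that are in a list, and bars are medians. In Dnmt3L KO and Pld6 KO the medians are -0.04 and 0.01 for paraspeckle proteins and 0.08 and 0.24 for speckle proteins. Malat1 is the highest long noncoding RNA in Dnmt3L KO, and the stress genes have medians of 1.14 and 0.81.

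Stress and immediate early genes, which many cells raise quickly after a stimulus, were set beside Malat1. Of 20 such genes 6 were past the rule in Dnmt3L KO and 2 in Pld6 KO, all higher, with medians of 1.14 and 0.81, and 19 and 14 of the 20 were above both controls, beside 35.5% and 31.0% of the genes with at least 1 FPKM. The controls differed too, with 10 of the 20 over 2-fold apart and a median 1.05 higher in the heterozygote. Of the genes with at least 1 FPKM, 3419 of 14416 were over 2-fold apart between the controls. Compared within each line, the medians were 0.67 for Dnmt3L KO and 1.42 for Pld6 KO, the opposite order of the mutants. Atf3, a transcription factor of stress responses, was at 5.38 FPKM in the heterozygous control, 4.12 FPKM in Pld6 WT, 24.4 FPKM in Dnmt3L KO and 12.2 FPKM in Pld6 KO. The immediate early factor Fosb was at 25.3, 6.55, 66.0 and 43.7 FPKM in the same order, and Egr1 at 53.5, 23.6, 126 and 105 FPKM. Nr4a1, a nuclear receptor induced early, was at 10.6, 8.68, 22.7 and 28.3 FPKM. The summed level of the list was 893, 462, 1405 and 1126 FPKM in the same order. The part of these genes in the Malat1 level was not tested.

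Markers of other cells also differed between the libraries. In Dnmt3L KO 17 of 17 Sertoli markers and 12 of 12 macrophage markers were above both controls, and 16 of 18 L/Z markers were below both, beside 35.5% above and 34.0% below among the genes with at least 1 FPKM. By the rule, 2 Sertoli, 2 macrophage and 2 of 7 Leydig markers were higher in Dnmt3L KO, and 10 of 12 pachytene and 14 of 16 spermatid markers were lower. Of the genes with at least 1 FPKM, 3.29% were higher and 9.16% lower in Dnmt3L KO, and 1.51% and 8.57% in Pld6 KO. In Pld6 KO 10 of 12 pachytene and 15 of 16 spermatid markers were lower as well. Of 11 peritubular and vascular markers 0 were past the rule in Dnmt3L KO (median -0.38) and 4 were higher in Pld6 KO (median 0.99). Of 15 spermatogonia markers 1 was higher and 1 lower in Dnmt3L KO (median -0.18). In Pld6 KO 2 of them were higher and 0 lower (median 0.06). The summed Leydig level was 334 FPKM in the heterozygote, 25.6 FPKM in Pld6 WT, 323 FPKM in Dnmt3L KO and 225 FPKM in Pld6 KO. Against the heterozygote the median Leydig marker differed by -0.02 on the log2 scale in Dnmt3L KO. No Sertoli, Leydig, L/Z or pachytene marker was at 0 in any library. The macrophage marker Cd163 was at 0 in Pld6 WT, and the spermatid markers Acrv1, Catsper1 and Hils1 were each at 0 in at least 1 mutant. The summed Sertoli level was 10275 FPKM in the heterozygote, 302 FPKM in Pld6 WT, 13293 FPKM in Dnmt3L KO and 742 FPKM in Pld6 KO. Against the heterozygote the median Sertoli marker differed by 0.38 on the log2 scale in Dnmt3L KO. The summed macrophage level was 75.3 FPKM in the heterozygote, 24.8 FPKM in Pld6 WT, 142 FPKM in Dnmt3L KO and 63.8 FPKM in Pld6 KO. The part of these other cell types in the Malat1 level was not tested.

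**Figure D5:**
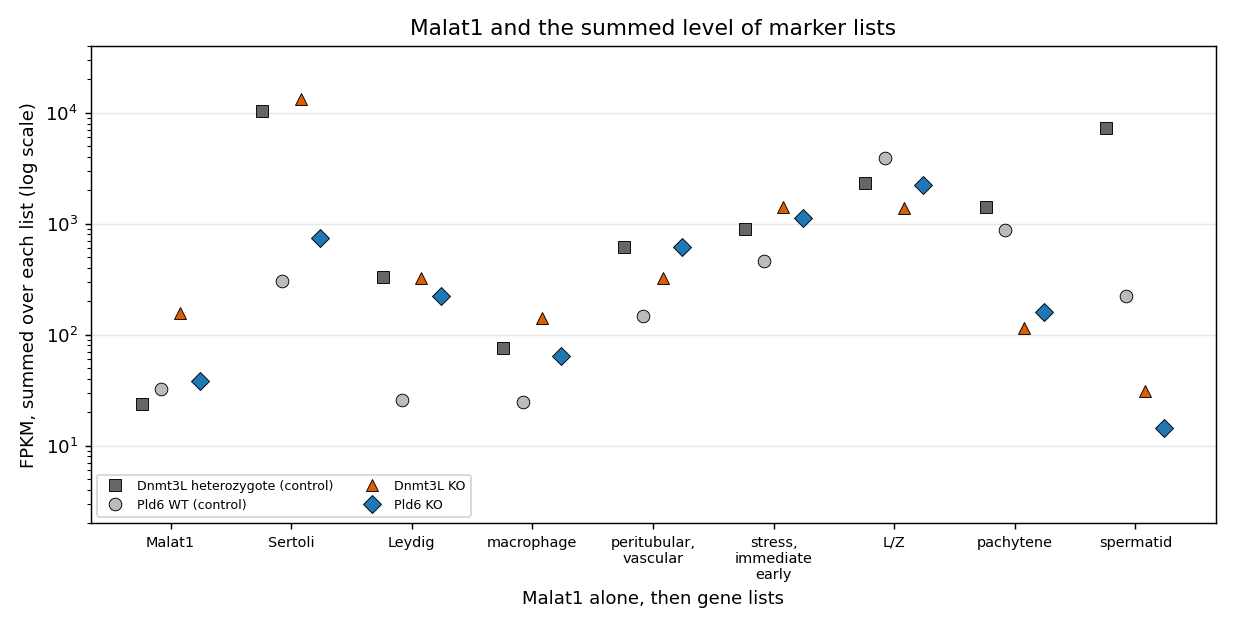
Malat1 FPKM and the summed FPKM of marker lists (log axis) in each library, with 1 point per library. The Sertoli sums of the Dnmt3L heterozygote and Dnmt3L KO lie at 10275 and 13293 FPKM. Malat1 lies at 23.6 and 156 FPKM in these libraries. The part of other cell types in the Malat1 level was not tested.

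Besides Neat1, described above, 26 genes start within 250 kb of Malat1, of which 21 had a mean of at least 1 FPKM and 0 were past the rule in either mutant. Of all genes 2.14% were higher and 5.78% lower in Dnmt3L KO, and 1.04% and 5.41% in Pld6 KO. With so few neighbours, nothing is read from that count. The median log2 difference of these 26 was -0.09 in Dnmt3L KO, from -1.17 (Ovol1) to 1.51 (Slc25a45), and 0.14 in Pld6 KO, from -1.75 (Slc25a45) to 0.90 (Syvn1). Slc25a45, a mitochondrial carrier gene, was at 38.3 FPKM in the heterozygous control, 3.22 FPKM in Pld6 WT, 60.8 FPKM in Dnmt3L KO and 5.45 FPKM in Pld6 KO, which separated the 2 lines rather than the mutants from the controls.

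The genes most like Malat1 across the 4 libraries were sought among 10611 genes with a mean of at least 5 FPKM, by the root-mean-square difference of centred log2(FPKM + 1). The closest was Mid1, a ubiquitin ligase of microtubules, at a distance of 0.31, with 1.61 FPKM in the heterozygous control, 4.67 FPKM in Pld6 WT, 20.7 FPKM in Dnmt3L KO and 6.18 FPKM in Pld6 KO. It was followed by Trank1, 1700030C10Rik, Foxn3 and Trrap, at distances from 0.40 to 0.43. None of the other 6 genes came near: Neat1 was in place 589 (0.76), Son in 667, Nono in 850, Srrm2 in 1844, Sfpq in 2212 and Pspc1 in 7694. The 5 genes closest to Neat1 were Zmynd8, Frmd6, Prr12, Neo1 and Trit1, at distances from 0.03 to 0.05, with Son in place 284, Sfpq in 413 and Malat1 in 8047. With 4 libraries a gene can share nearly the same pattern with others, as Neat1 did, while no gene lay closer to Malat1 than 0.31. These distances carry no test.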

How the data were processed

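RNA of 4 libraries was analysed as deposited. Per the labels and methods, the authors sequenced single-end reads of 50 bp from stranded polyA(+) libraries and used TopHat and Cuffdiff with mm10, in versions not given in the sources used here. The deposited table holds estimated counts of fragments per gene and FPKM scaled by the authors' tool. Of the estimated counts 97.3% to 97.4% were exactly whole numbers, with no tolerance, and 31 values in 28 genes were marked as failed and kept. Other columns were not used here.

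FPKM differences were taken with a pseudocount of 1 FPKM. edgeR 4.0.16 (quasi-likelihood, TMM, filterByExpr, Benjamini-Hochberg) was run on rounded counts of all genes, with 3 groups and 1 residual degree of freedom, and DESeq2 1.42.0 as an alternative. The edgeR step was tested on simulated data with less spread than these data, where the common dispersion was 0.347. A set recovery was required there only with more libraries per mutant than in this design. That test therefore does not show what edgeR can recover here. DESeq2 was not tested on simulated data. p-values measure the spread between the 2 controls, which differ in genotype. The genes, lists and rules were chosen with earlier results of these data known. Named genes are the 7, up to 3 genes of each list per mutant and direction past the 2-fold rule, the ends of the range of a list or of the neighbours of Malat1 (chosen after their values were seen), the 5 genes nearest in pattern to Malat1 and to Neat1, and the targeted genes. Of 30 listed long noncoding RNAs 28 were found. Promoters are RefSeq and transcripts GENCODE M21. Reads of retrotransposons and alleles were not analysed here.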

Additional observations from a re-analysis of the deposited data

Results flagged for a closer look

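The median difference of the 33 paraspeckle proteins took opposite signs in the mutants when each was set against the control of its own line. It was 0.20 on the log2 scale for Dnmt3L KO against the Dnmt3L heterozygote and -0.19 for Pld6 KO against Pld6 WT. Each side is 1 library against 1, and the difference was not tested. The controls differed from each other by a median of -0.34 over the same list.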

How the results depend on the processing

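No paired analysis was possible because each mutant had 1 library and the control numbers only name libraries. Another pseudocount and 2 other scalings moved the 42 values of the 7 genes by at most 0.10 (Neat1 in Dnmt3L KO) and turned 0 signs. Single controls moved them further, and Malat1 in Dnmt3L KO ranged from 2.24 to 2.67. The sign turned for Srrm2 in Dnmt3L KO without control replicate 1 (-0.06), and without control replicate 2 for Nono (-0.14) and Pspc1 (0.18) in Pld6 KO. Of 60 list medians, 11 moved by more than the spread of the controls and 5 changed sign, among them the paraspeckle proteins in Dnmt3L KO (-0.30 without control replicate 1 and 0.20 without control replicate 2).

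Without 1 control, the genes past the 2-fold rule ranged in Dnmt3L KO from 719 to 2891 higher and 1970 to 2099 lower, and in Pld6 KO from 1124 to 1330 higher and 1548 to 3209 lower. Of the 7 genes, 2 were then higher in Dnmt3L KO whichever control was left out, and 0 to 1 in Pld6 KO; leaving out Nono, an alternative chosen after seeing the data, left the counts at 1 and 0. With a pseudocount of 0.1 FPKM 1233 genes were higher and 2360 lower in Dnmt3L KO, and 989 and 2297 in Pld6 KO. A 3-fold threshold gave 90 higher and 877 lower genes in Dnmt3L KO, and 50 and 854 in Pld6 KO. Where edgeR called 0 genes, it called 6 higher and 423 lower in Dnmt3L KO and 8 and 429 in Pld6 KO with no filter on low counts, DESeq2 called 17 and 925, and 15 and 949, and edgeR with RLE size factors called 0. The cause was not tested. DESeq2 called 0 of the 7 genes in Pld6 KO and, with Malat1 set aside, 0 of the other 6 in Dnmt3L KO. The edgeR test without a control was not run, since 0 residual degrees of freedom would be left. Each of the 7 genes had at least 667 fragments in every library, and each mutant rests on 1 library.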
